A study of Mus musculus with 32 samples.

Results

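The 10 genes described here mark macrophages and monocytes: C1qa, C1qb, C1qc, Csf1r, Adgre1, Itgam, Mrc1, Lyz2, Ctss and Cd68. They were taken by name from 33654 gene rows, and all 10 were present in each of 4 tables of RNA sequencing values. The question was whether they move together, from library to library and between the groups of the study. The 32 mouse libraries came from tumors of MMTV-PyMT breast cancer cells, a model in which a viral oncogene under a mammary promoter drives mammary tumors, and from CD8 T cells isolated from those tumors. The wild-type time course held 3 tumor libraries of week 2, 4 of week 3 and 4 of week 4, with 3 CD8 T cell libraries for each of these times. A second set held xenografts labelled shMogat1 (Mogat1 knockdown) or shCTRL (genotype label WT), with 3 tumor libraries and 3 CD8 T cell libraries of each. The labels give no animal, age, batch, pooling or cell host beyond this, and nothing says whether replicates came from separate animals, so p-values measure only the spread between these libraries, which may be technical. Values are TPM (reads scaled for gene length, then to the same total in every library) as the authors deposited them, given as means ± SD. Each table was scaled by itself, so levels set across tables are descriptions.

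Macrophages are phagocytes that mature from blood monocytes or from embryonic precursors and take up dead cells, debris and microbes. In mammary tumors of this mouse model they are an abundant leukocyte, and their survival depends on the receptor encoded by Csf1r. C1qa, C1qb and C1qc encode the 3 chains of C1q, the recognition molecule of the classical complement pathway. Adgre1 encodes F4/80, a surface receptor used to identify mouse macrophages, Itgam encodes CD11b, an integrin chain shared with monocytes, neutrophils and NK cells, and Mrc1 encodes the mannose receptor. Lyz2 encodes lysozyme M, Ctss the lysosomal protease cathepsin S, which trims the invariant chain of MHC class II, and Cd68 a glycoprotein of late endosomes and lysosomes. Itgam, Ctss, Lyz2 and Cd68 are not restricted to macrophages.

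The C1q genes lie side by side on the minus strand of mouse chromosome 4, spanning 18.7 kb (C1qb at chr4:136880129-136886187, C1qc at chr4:136889804-136893065 and C1qa at chr4:136895917-136898803 in GRCm38, GENCODE M21). The other 7 genes lie on 7 other chromosomes: Mrc1 on 2, Ctss on 3, Itgam on 7, Lyz2 on 10, Cd68 on 11, Adgre1 on 17 and Csf1r on 18. The RefSeq promoter table (GRCm38.p6) held 7 of the 10 genes; C1qa, Csf1r and Adgre1 were not matched. In the 250 bases before the start of the gene, on either strand, the word AGGAAGT (read ACTTCCT on the opposite strand), which holds the core of the sites bound by ETS factors such as PU.1, was found in 4 of the 7 promoters (Mrc1, C1qb, C1qc and Lyz2) and in 7.69% of 32851 promoters. The shorter word GAGGAA, which can overlap it, was found in 6 of the 7 (Mrc1, Ctss, C1qb, C1qc, Itgam and Cd68) and in 23.3% of all promoters. Both words were chosen after the promoters had been read, and a match is a description of the letters, not a binding site. The 4 promoters that hold AGGAAGT are shown because the levels of these genes are compared throughout; each runs 5′ to 3′ along the gene's strand and ends before its start, with the match in capitals.
C1qb (chr4:136886201-136886400, minus strand): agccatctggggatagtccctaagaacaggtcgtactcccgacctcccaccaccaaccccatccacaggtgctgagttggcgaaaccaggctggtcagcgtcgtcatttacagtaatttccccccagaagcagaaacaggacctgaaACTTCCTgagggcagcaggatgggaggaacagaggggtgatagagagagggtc
C1qc (chr4:136893066-136893164, minus strand): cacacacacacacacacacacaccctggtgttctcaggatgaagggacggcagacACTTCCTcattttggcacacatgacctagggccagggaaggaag
Lyz2 (chr10:117282322-117282521, minus strand): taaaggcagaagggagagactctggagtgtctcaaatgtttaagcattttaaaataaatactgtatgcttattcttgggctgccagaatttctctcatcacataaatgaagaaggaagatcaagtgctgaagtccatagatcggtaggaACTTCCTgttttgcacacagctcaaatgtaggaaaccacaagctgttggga
Mrc1 (chr2:14229192-14229391, plus strand): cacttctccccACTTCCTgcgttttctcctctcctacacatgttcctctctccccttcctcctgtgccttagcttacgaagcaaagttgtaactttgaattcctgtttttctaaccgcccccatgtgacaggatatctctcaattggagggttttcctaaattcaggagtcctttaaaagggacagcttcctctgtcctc
In these printed stretches the word stands in the ACTTCCT orientation in all 4 genes, beginning 53 bases before the RefSeq start of C1qb, 44 before C1qc, 51 before Lyz2 and 189 before Mrc1. Distances are counted to the end of the printed stretch, which for C1qb lies upstream of the GENCODE start given above.

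From the smallest TPM steps, tumor libraries over time held an estimated 30.1 to 49.5 megareads, with 32.0 to 53.1 for CD8 T cells over time, 38.0 to 57.4 for the knockdown tumors and 36.4 to 49.8 for the knockdown CD8 T cells. These estimates rest on exon lengths that the submitters do not name. The least covered value of a member was Adgre1 in CD8 T cell week 2 replicate 1, at about 14 reads, and in the other tables no member fell below about 82 reads. Cd8a stood at 673 to 1173 TPM in every CD8 T cell library, and Ptprc, the CD45 antigen of all leukocytes, at 1020 to 1354 TPM. Epcam, which marks epithelial cells, stood at 249 to 567 TPM in the tumor libraries of the time course, at 28.4 to 30.8 TPM in tumors labelled shMogat1 and at 0.560 to 0.864 TPM in tumors labelled shCTRL. The epithelial marker was thus nearly absent from the tumors labelled shCTRL. Mogat1, the targeted gene, had 0.624, 0.146 and 0.531 TPM in tumors labelled shMogat1 (replicates 1, 2 and 4). It was listed at 0 in all 3 tumors labelled shCTRL, which goes against the label. All of these values were below 1 TPM, near the floor, against 35.8 to 39.6 TPM in week 4 tumors of the time course. They do not settle whether the labels are right. The groups are therefore called by their labels, and every direction between them rests on those labels. In bulk libraries, a lower level can mean fewer cells of a type or less RNA per cell, and these cannot be told apart.

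In tumors over time the macrophage genes varied widely between libraries of the same week, and their average was lower in week 4 than in week 2 for most of them. The C1q chains show the pattern. C1qa had 392, 78.2 and 354 TPM in week 2 (replicates 1 to 3), 107, 97.5, 231 and 232 TPM in week 3 (replicates 1 to 4), and 167, 206, 23.2 and 79.1 TPM in week 4 (replicates 1 to 4). Week 2 replicate 2 was lower than both other week 2 libraries, week 4 replicate 3 was the lowest of all 11, and the 3 weeks overlapped. C1qa averaged 118.8 ± 83.0 TPM in week 4 (n = 4) and 274.5 ± 171 TPM in week 2 (n = 3), a log2 fold change of -1.30 on the log2(TPM + 1) scale (SE 0.75, limma adjusted p = 0.18) that did not pass the threshold of an adjusted p under 0.05. C1qb and C1qc followed it closely, with log2 fold changes of -1.25 and -1.31 and adjusted p-values of 0.171 and 0.158. The size of the difference depended on single libraries: the log2 fold change of C1qa was -2.04 without week 2 replicate 2 and -0.66 without week 4 replicate 3. With each library left out in turn, C1qb ranged over -1.96 to -0.64 and C1qc over -2.03 to -0.75.

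The lysosomal genes Lyz2 and Ctss had the lowest log2 fold changes in week 4 against week 2. Lyz2 had 1307, 325 and 1009 TPM in week 2, 292, 332, 371 and 586 TPM in week 3, and 434, 482, 71.7 and 185 TPM in week 4. It averaged 293.1 ± 197 TPM in week 4 and 880.5 ± 503 TPM in week 2, a log2 fold change of -1.71 (SE 0.64, limma adjusted p = 0.0475), and was the only member to pass the threshold, beside 17.1% of tested genes called lower, although week 2 replicate 2 lay inside the week 4 range. This call was lost under 5 of the 8 alternatives that did not leave out single libraries, at adjusted p-values of 0.0538 to 0.303. These include the fit of only the groups compared, which drops the week 3 libraries (limma adjusted p = 0.0969). The call was also lost without 8 of the 11 libraries in turn, at adjusted p-values up to 0.148 (without week 2 replicate 1). The libraries whose omission kept it were week 2 replicate 2 and week 4 replicates 1 and 2; without week 2 replicate 2, 4 of the 10 genes passed (Lyz2, Ctss, C1qc and Adgre1). Reads of Lyz2 may be shared with its near-identical neighbour Lyz1, which stood at 0.681 to 43.8 TPM in these libraries. Ctss had 650, 186 and 713 TPM in week 2, 193, 176, 351 and 381 TPM in week 3, and 256, 321, 42.0 and 101 TPM in week 4, again with week 2 replicate 2 and week 4 replicate 3 low within their weeks. Its log2 fold change was -1.68 in week 4 against week 2 (SE 0.68, adjusted p = 0.062).

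Among the surface receptors, Csf1r, Adgre1 and Mrc1 were lower on average in week 4 than in week 2 without passing the test. Csf1r, the receptor for CSF1 and IL-34, had 82.2, 9.59 and 28.6 TPM in week 2, 22.3, 21.5, 40.5 and 52.2 TPM in week 3, and 31.2, 38.3, 6.98 and 15.1 TPM in week 4. Its highest value, in week 2 replicate 1, was 11.8 times its lowest, in week 4 replicate 3, and its log2 fold change for week 4 against week 2 was -0.56 (SE 0.69, adjusted p = 0.529). Adgre1 averaged 8.93 ± 5.65 TPM in week 4 and 18.8 ± 11.2 TPM in week 2 (log2 fold change -0.99, adjusted p = 0.184), and Mrc1 9.12 ± 3.87 TPM in week 4 and 20.6 ± 18.4 TPM in week 2 (log2 fold change -0.83, adjusted p = 0.196).

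Itgam and Cd68 had week 4 means close to those of week 2. Itgam had 18.5, 2.16 and 7.60 TPM in week 2, 8.87, 7.44, 15.6 and 20.01 TPM in week 3, and 13.8, 17.4, 3.62 and 7.89 TPM in week 4. Cd68 had 88.4, 15.3 and 45.6 TPM in week 2, 27.9, 36.7, 49.2 and 67.0 TPM in week 3, and 50.9, 64.2, 18.9 and 36.1 TPM in week 4. For both, the lowest of the 11 libraries was week 2 replicate 2 rather than week 4 replicate 3, and the weeks overlapped. The log2 fold change in week 4 against week 2 was 0.34 for Itgam (SE 0.61, adjusted p = 0.669) and -0.04 for Cd68 (SE 0.55, adjusted p = 0.959).

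**Figure D1:**
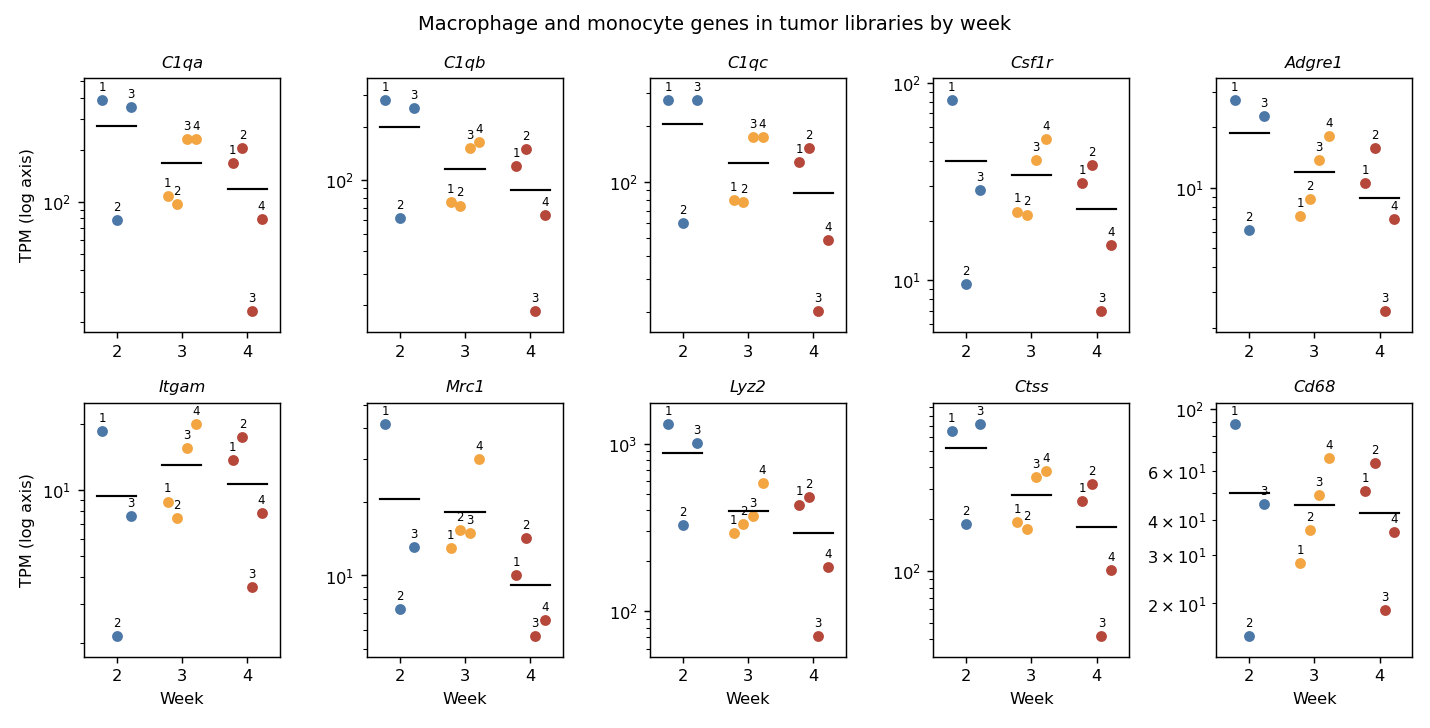
TPM of each of the 10 genes (log axis, 1 panel per gene) in the tumor libraries of weeks 2, 3 and 4; points are libraries labelled with their replicate number and the line is the mean of a week. Week 2 replicate 2 is the lowest week 2 library and week 4 replicate 3 the lowest week 4 library in all 10 panels.

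Counted over all 10 genes, 1 was lower and none higher in week 4 against week 2, beside 46.3% of 14770 tested genes called in either direction (17.1% lower). Their median log2 fold change was -1.12, against 0.11 over all tested genes, and 9 of 10 were below 0. This median was -1.78 without week 2 replicate 2, -0.74 without week 2 replicate 1, -0.65 without week 4 replicate 3 and -0.73 with array weights. In week 3 against week 2, 0 of 10 passed in limma, 0 had an unadjusted p under 0.05, and the background was 24.1%; the median was -0.48, against 0.14 over all genes. It was -1.16 without week 2 replicate 2, -0.10 and -0.16 without week 2 replicates 1 and 3, -0.30 without either week 3 replicate 1 or 2, and -0.16 with array weights. In week 4 against week 3, 0 of 10 passed in limma, 0 had an unadjusted p under 0.05, and the background was 13.7%; all 10 were below 0, with a median of -0.72 against -0.02, and of -0.16 without week 4 replicate 3. Standard errors of the members were 0.46 to 0.75 on the log2 scale in these comparisons. The 3 comparisons share libraries and are not independent of each other.

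In the tumor time course the genes moved together from library to library. Within week 4, all 10 had the same order: replicate 2 highest, then 1, 4 and 3. In week 3, replicate 4 was the highest for all 10, and in week 2 replicate 2 was the lowest for all 10 and replicate 1 the highest for 8. The summed level of the 10 genes was 752 TPM in week 2 replicate 2, against 2725 and 3164 TPM in the other week 2 libraries, and 213 TPM in week 4 replicate 3, against 550, 1221 and 1461 TPM in the other week 4 libraries. Week 4 replicate 3 also had the largest share of mitochondrially encoded mRNA, 16.1% of TPM against 6.37% to 12.7% in the other tumor libraries of the time course, and the lowest Ptprc, 3.13 TPM against 8.33 to 98.1 TPM. The part of RNA quality or of total leukocyte content in its low values was not tested.

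Over the 11 tumor libraries, all 45 pairs of the 10 genes were positively correlated on the log2(TPM + 1) scale, with a median Pearson's r of 0.89. After adjustment over 90 pairs (45 in tumors and 45 in CD8 T cells), 43 pairs passed on Pearson's r and 45 on Spearman's rho. The closest pair was C1qa and C1qb (r = 0.998, rho = 1; permutation p = 1e-05 for each, the smallest that 100000 permutations can give; adjusted p = 7.5e-05 and 0.000129). The loosest was Itgam and Lyz2 (r = 0.58, permutation p = 0.0631, adjusted 0.0676; rho = 0.65, adjusted 0.0457), and Itgam with Ctss was the other pair that missed the threshold on r (0.61, permutation p = 0.0457, adjusted 0.0520). Leaving out the 2 libraries farthest from the median of a pair's first gene left a median r of 0.80, and 0.42 for Itgam and Lyz2. When each library was expressed as its deviation from its week's mean, the median r was 0.94 and the lowest 0.71 (Mrc1 and Ctss), so the genes were as closely tied within weeks as across them.

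**Figure D2:**
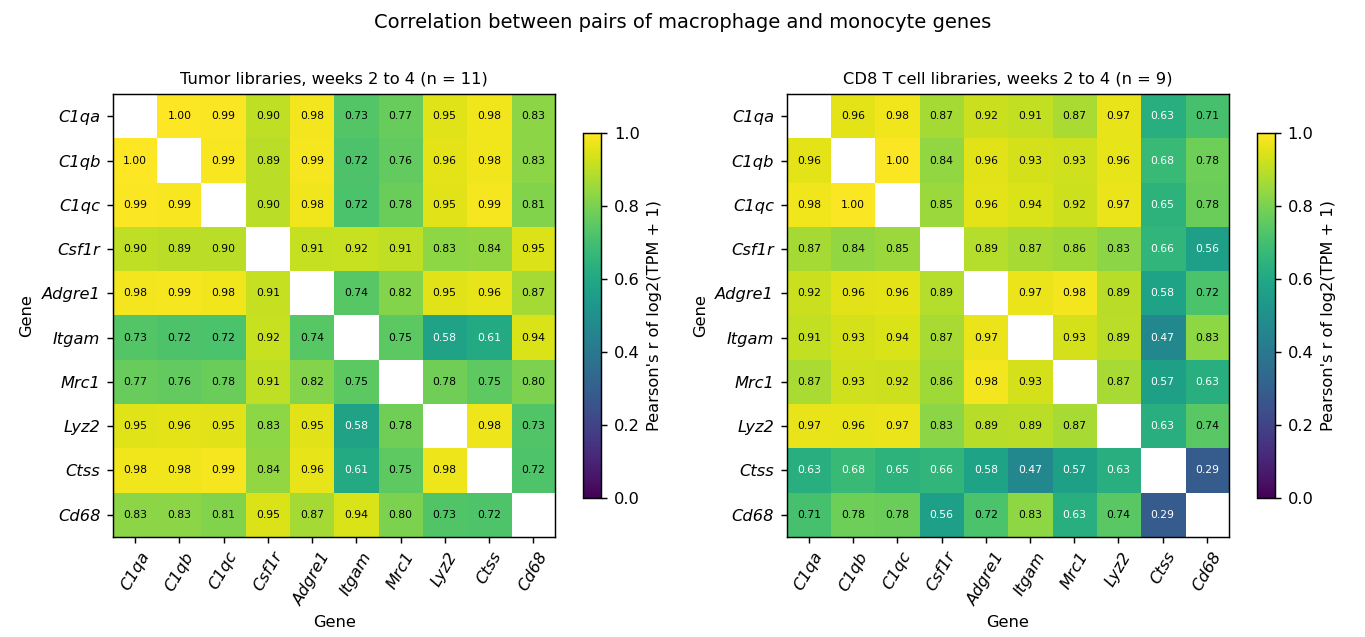
Pearson's r of log2(TPM + 1) for each pair of the 10 genes over the tumor libraries of weeks 2 to 4 (left, n = 11) and the CD8 T cell libraries of weeks 2 to 4 (right, n = 9). The C1q block is near 1 in both tables; Itgam is the loosest gene in tumors, and Ctss and Cd68 are the loosest in CD8 T cells.

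Against the rest of the table, the likeness of the members to each other was high: each had an r of 0.77 (Itgam) to 0.98 (Adgre1) with the mean of the other 9, whereas 2.10% of 14760 other tested genes had an r above 0.8 with the mean of the 10 and the median gene had 0.05. These are descriptions, since the libraries share depth, cell content and scaling. Among the 8 genes most like the mean of the 10 over the 11 tumor libraries were Fcgr1 (r = 0.987), a high-affinity IgG receptor; Osm, the cytokine oncostatin M; Mpeg1, a pore-forming protein of phagocytes; Fcgr3, a low-affinity IgG receptor; Pld4; Lilrb4a, an inhibitory receptor; and Apoe (r = 0.978), an apolipoprotein.

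Ratios between members show where they parted. C1qb over C1qa kept to 0.601 to 0.810 in all 17 tumor libraries of both sets. Itgam over C1qa was 0.0215 to 0.0474 in week 2, 0.0673 to 0.0862 in week 3 and 0.0825 to 0.156 in week 4, so the week 2 libraries lay below all later ones. Cd68 over C1qa was 0.129 to 0.226 in week 2, 0.212 to 0.376 in week 3 and 0.305 to 0.815 in week 4, with weeks 2 and 4 apart. These ratios were picked after the values had been seen and were not tested, and the neutrophil list, whose cells also carry CD11b, summed to 29.9 to 75.2 TPM in week 2, 82.6 to 92.8 TPM in week 3 and 144 to 235 TPM in week 4.

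**Figure D3:**
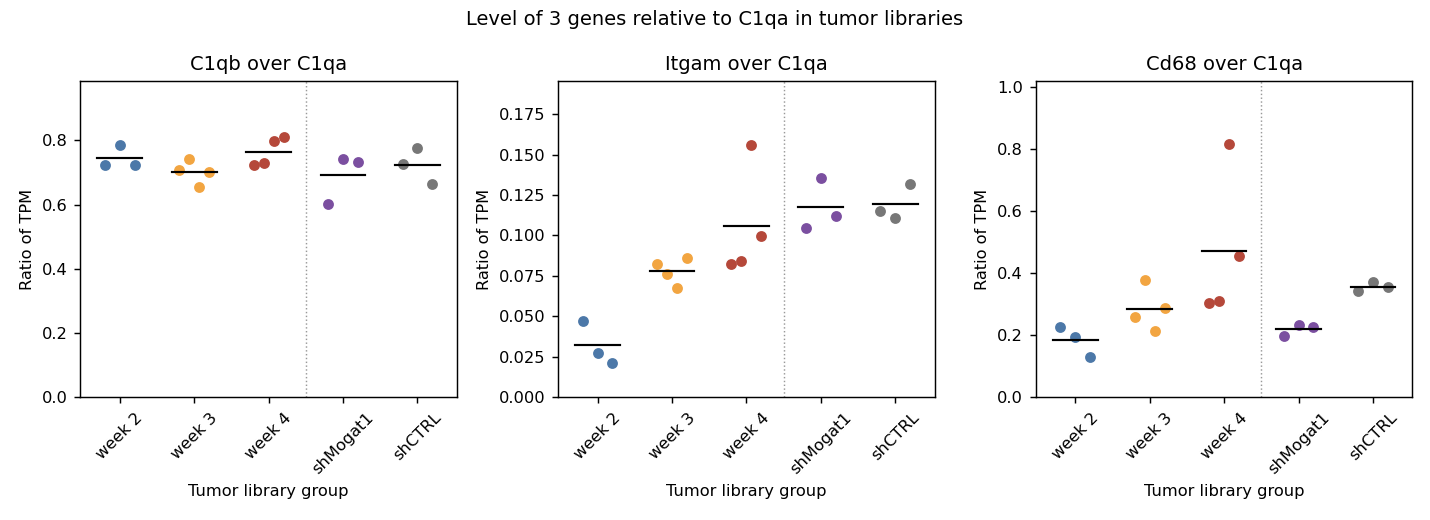
Ratio of the TPM of C1qb, Itgam and Cd68 to that of C1qa (linear axes from 0) in tumor libraries of weeks 2, 3 and 4 and in tumors labelled shMogat1 and shCTRL; points are libraries and lines are group means. C1qb over C1qa is nearly level, while Itgam and Cd68 over C1qa have their lowest mean in week 2 among the weeks.

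Genes of related lists passed the test in part. Over all tested genes, 17.1% were called lower and 29.2% higher in week 4 against week 2, and a count near these shares does not set a list apart. In week 4 against week 2, 7 of 12 monocyte genes were lower and none higher, among them Ly6c2, a surface antigen of classical monocytes (1.88 ± 2.28 TPM in week 4 and 23.7 ± 22.9 TPM in week 2, log2 fold change -3.02, limma adjusted p = 0.00225), Ifitm3 and Ccr2, the receptor for CCL2 (log2 fold change -1.37). Of 16 tested tissue macrophage genes, 3 were lower (Aif1, Lyve1 and Axl) and 1 higher. This was Mertk, a receptor for dying cells, at 22.6 ± 4.22 TPM in week 4 and 7.54 ± 2.92 TPM in week 2 (log2 fold change 1.51). Of 14 activation genes, 6 were lower, led by Ptgs2, the prostaglandin synthase COX-2 (75.5 ± 14.0 TPM in week 4 and 629.4 ± 205 TPM in week 2), and Tnf was higher (380.8 ± 61.3 TPM in week 4 and 66.7 ± 15.0 TPM in week 2, log2 fold change 2.51). Ptprc averaged 12.1 ± 7.68 TPM in week 4 and 55.9 ± 37.3 TPM in week 2, below Ptgs2 and Tnf in both weeks. The part of cells other than leukocytes in the values of Ptgs2 and Tnf was not tested. Of the phagocyte receptors and their adaptors, 1 of 14 was lower (Clec7a), and of the growth factors and chemokines that act on these cells 3 of 8 were lower (Il34, Csf2 and Ccl8) and Cx3cl1 was higher. Lysosomal genes had 2 of 11 lower (Ctsc and Lamp2), and complement genes 1 of 10 lower and 1 higher (C1qbp).

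In the remaining tumor comparisons, few genes of these lists passed. Over all tested genes, 4.01% were called lower and 20.1% higher in week 3 against week 2, and 8.19% lower and 5.53% higher in week 4 against week 3. Week 3 against week 2 had 2 of 12 monocyte genes lower (Plac8 and Ifitm3), 2 of 16 tissue macrophage genes higher (Mertk among them), Tnf higher, Il12b lower, Cx3cl1 and C1qbp higher, and Ctsh lower. Week 4 against week 3 had Ly6c2 and Ifitm3 lower, Lyve1 lower, 3 of 14 activation genes lower (Ptgs2, Cd80 and Nos2) with Tnf higher, Csf2 and Il34 lower, Ccl2, a chemokine that draws monocytes, higher (log2 fold change 0.71), and 3 of 11 lysosomal genes lower (Ctsc, Ctsd and Lamp2) with Ctsh higher. Other leukocytes changed with the week as well: in week 4 against week 2 Ptprc fell (log2 fold change -2.17, limma adjusted p = 0.0115), 5 of 6 T cell and 4 of 5 B cell genes were lower, while 3 of 5 neutrophil genes and 5 of 7 epithelial genes were higher. Mast cell genes had 4 of 5 lower and 1 higher, dendritic cell genes 3 of 6 lower and NK cell genes 1 of 3 lower. Endothelial genes had 4 of 6 lower and 1 higher, fibroblast genes 1 of 6 lower and epithelial genes 1 of 7 lower. The summed T cell genes were 8.68 to 23.1 TPM in week 4 and 45.6 to 163 TPM in week 2, and their part in the members' values was not tested.

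In CD8 T cell libraries over time, the macrophage genes again varied by library, and no member passed the test between weeks. C1qa had 4.37, 39.1 and 53.6 TPM in week 2 (replicates 1 to 3), 37.3, 138 and 80.8 TPM in week 3 (replicates 1, 3 and 4) and 52.9, 44.5 and 36.0 TPM in week 4 (replicates 2 to 4). Week 2 replicate 1 was the lowest library and week 3 replicate 3 the highest, and the weeks overlapped. Its log2 fold change was 0.98 in week 4 against week 2 (SE 0.79, adjusted p = 0.399) and 1.74 in week 3 against week 2 (SE 0.79, adjusted p = 0.373). Lyz2 had 25.2, 167 and 195 TPM in week 2, 87.0, 337 and 299 TPM in week 3 and 213, 174 and 131 TPM in week 4, with the same extremes.

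Adgre1, Itgam and Cd68 were the members whose week 4 libraries all lay above all week 2 libraries. Adgre1 had 4.52, 5.93 and 3.42 TPM in week 4, against 0.403, 2.29 and 2.82 TPM in week 2 (log2 fold change 1.09, SE 0.50, adjusted p = 0.151). Itgam had 6.46, 6.53 and 4.77 TPM in week 4, against 0.747, 3.48 and 2.87 TPM in week 2 (log2 fold change 1.14, SE 0.43, adjusted p = 0.091). Cd68 had 48.9, 29.4 and 43.8 TPM in week 4, against 15.3, 26.8 and 24.9 TPM in week 2 (log2 fold change 0.84, SE 0.30, adjusted p = 0.0811). None of the 3 passed the adjusted threshold, and 20.6% of 13350 tested genes had all week 4 libraries above all week 2 libraries.

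Ctss varied least in these libraries. It had 275, 310 and 360 TPM in week 2, 280, 434 and 406 TPM in week 3 and 331, 250 and 250 TPM in week 4, a range of 1.74-fold over the 9 libraries, against 31.6-fold for C1qa. Week 2 replicate 1, which had the lowest C1qa (4.37 TPM), had 275 TPM of Ctss, and Ctss over C1qa was 62.9 there against 3.15 to 7.50 in the 3 week 3 libraries. Cd68 had the next smallest range, 3.20-fold, and the other 8 genes ranged 13.2-fold to 31.6-fold.

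**Figure D4:**
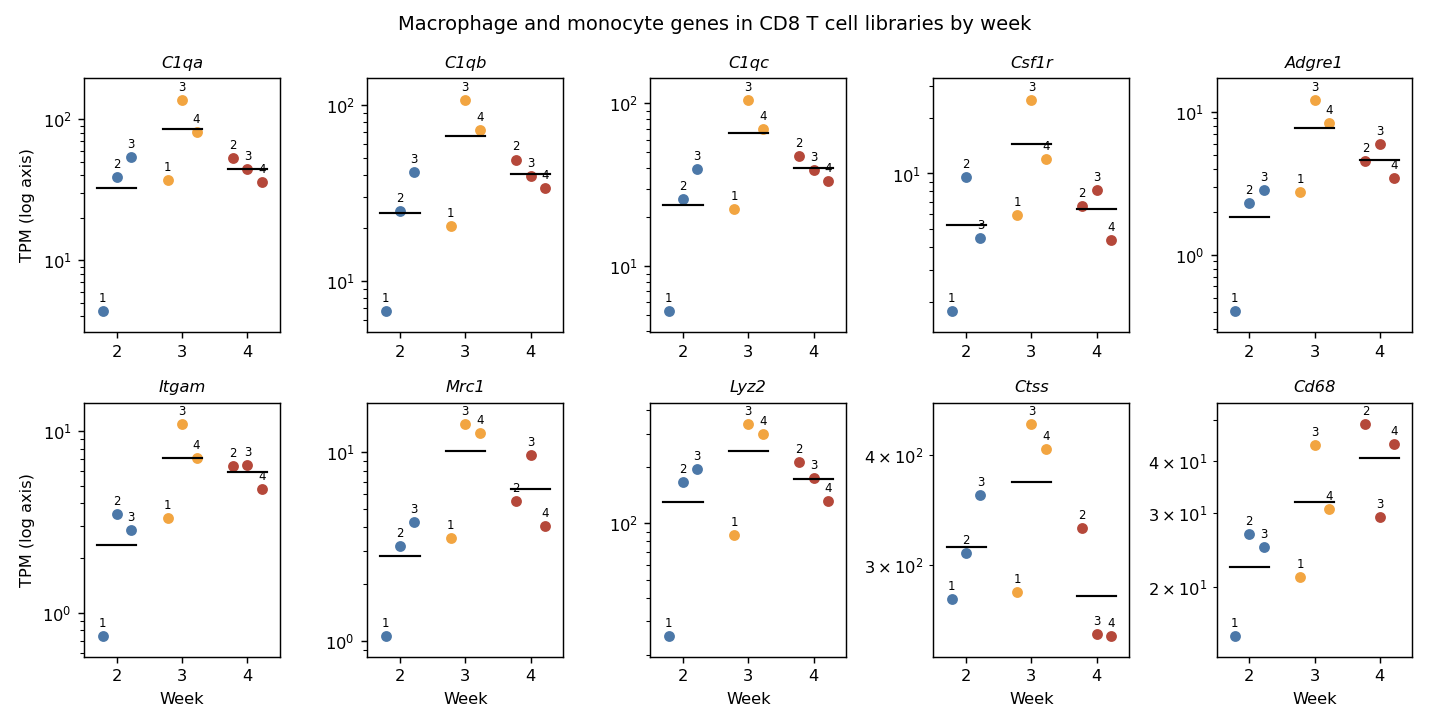
TPM of each of the 10 genes (log axis, 1 panel per gene) in CD8 T cell libraries of weeks 2, 3 and 4; points are libraries labelled with their replicate number and the line is the mean of a week. Week 2 replicate 1 is the lowest library for 9 genes and week 3 replicate 3 the highest for 9, and Ctss ranges 1.74-fold.

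No member passed the threshold over these weeks in limma: 0 of 10 in week 4 against week 2 (2 with an unadjusted p under 0.05; background 17.5%), 0 of 10 in week 3 against week 2 (4 with an unadjusted p under 0.05; background 0.0449%, or 6 of 13350 genes) and 0 of 10 in week 4 against week 3 (0 with an unadjusted p under 0.05; background 2.67%). Weighting the libraries by their estimated quality gave 4 members in week 4 against week 2 (C1qc, Adgre1, Itgam and Mrc1, all higher) and 1 in week 4 against week 3 (Ctss, lower). The median log2 fold change of the 10 genes was 0.98 in week 4 against week 2 (all genes -0.01), 1.37 in week 3 against week 2 (all genes 0.10), with all 10 above 0, and -0.44 in week 4 against week 3 (all genes -0.13), with Cd68 the only gene above 0. Without week 2 replicate 1 the median was 0.30 in week 4 against week 2 and 0.75 in week 3 against week 2. In week 4 against week 3 it was -1.02, -0.05 and -0.26 without week 3 replicates 1, 3 and 4. Array weights gave 1.56 in week 4 against week 2. Without week 2 replicate 1, the log2 fold changes of C1qa, Csf1r and Lyz2 in week 4 against week 2 were -0.06, -0.07 and -0.09. Libraries again kept an order: in week 3, replicate 3 was above 4 and 4 above 1 for all 10 genes, in week 2 replicate 1 was the lowest for all 10, and in week 4 replicate 4 was the lowest for 9.

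All 45 pairs were positively correlated over the 9 CD8 T cell libraries (median r 0.87); 35 passed on Pearson's r and 28 on Spearman's rho in exact permutation tests adjusted over the 90 pairs. C1qb and C1qc were the closest pair (r = 0.996, rho = 1), and Ctss and Cd68 the loosest (r = 0.29, exact permutation p = 0.445; rho = 0.17, exact permutation p = 0.678). Of the 10 pairs that missed the threshold on r, 8 held Ctss and the other two were Cd68 with Csf1r and with Mrc1. The relation leaned on the outermost libraries more than in tumors: without the 2 libraries farthest from the median, the median r was 0.63 and the lowest -0.13 (Csf1r and Cd68). Deviations from the week means had a median r of 0.87. Each member had an r of 0.62 (Ctss) to 0.99 (C1qc) with the mean of the other 9, and 2.36% of 13340 other tested genes had an r above 0.8 with the mean of the 10.

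The 8 genes most like the mean of the 10 over the 9 CD8 T cell libraries were Ms4a6d (r = 0.982), Clec4a3, Slc11a1, a metal transporter of phagosomes, Lgmn, a lysosomal protease, Clec5a, Pla2g7, Apoe and Fcgr2b, the inhibitory IgG receptor (r = 0.963). Of the 100 genes most like the mean in each time course, 22 were in both sets. Over all tested genes of the CD8 T cell libraries, 10.3% were called higher and 7.18% lower in week 4 against week 2. Among listed genes, week 4 against week 2 had 3 of 14 receptors and adaptors higher: Fcer1g (232.5 ± 93.7 TPM in week 4 and 36.4 ± 34.5 TPM in week 2, log2 fold change 3.00, limma adjusted p = 0.012), Tyrobp, another signalling adaptor, and Fcgr3. Both adaptors are also used by NK cells, 1 of whose 4 listed genes was higher, and the NK list summed to 46.9 to 82.8 TPM in week 4 and 44.1 to 49.8 TPM in week 2. Of 13 activation genes, 3 were higher (Spp1, Tnf and Acod1) and Il6 was lower. Of 12 monocyte genes Cx3cr1 was higher and 2 were lower, Ms4a6c among them, and of 14 tissue macrophage genes Msr1, a scavenger receptor, was higher. Csf2, which encodes the growth factor GM-CSF, had 24.9 ± 4.85 TPM in week 4 and 2.88 ± 2.21 TPM in week 2 (log2 fold change 2.86). Ctsb and Ctsc were the 2 of 11 lysosomal genes that were higher, and 0 of 10 complement genes passed. In week 3 against week 2 none of these lists had a gene past the threshold, and in week 4 against week 3 only Csf2 passed.

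Markers of other cells varied in the same CD8 T cell libraries, with 2 of 6 T cell genes, 1 of 4 neutrophil genes and 0 of 5 B cell genes higher in week 4 than in week 2 by the adjusted test. The summed B cell genes were 6.90 to 15.1 TPM in week 4 and 13.5 to 99.2 TPM in week 2, the summed epithelial genes 158 to 241 TPM in week 4 and 71.7 to 114 TPM in week 2. The summed fibroblast genes were 25.8 to 32.1 TPM in week 4 and 52.8 to 414.7 TPM in week 2, and the summed T cell genes were 4192 to 4769 TPM in week 4 and 3846 to 4093 TPM in week 2. No B cell or fibroblast gene passed the adjusted test in either direction, and of 7 epithelial genes 1 was higher and 1 lower. The summed dendritic cell genes were 422 to 1102 TPM in week 4 and 1311 to 1850 TPM in week 2, and 1 of 8 was called lower. Mast cell genes had 2 of 5 lower and endothelial genes 1 of 5 lower. Week 2 replicate 1, lowest for 9 members, had 11829 genes at 1 TPM or more, against 12464 to 13455 in the other 8 libraries. The part of these differences in the members' values was not tested.

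In tumors labelled shMogat1, all 10 macrophage genes were higher than in tumors labelled shCTRL, and for each gene all 3 libraries lay above all 3 libraries labelled shCTRL; 34.6% of tested genes were called higher, and 39.7% did not overlap in this direction. Since Mogat1 itself, at values near the floor, went against the labels in these tumors, the direction holds for the labels only. C1qa had 109, 92.9 and 100 TPM in tumors labelled shMogat1 (replicates 1, 2 and 4), against 41.8, 41.8 and 43.7 TPM in tumors labelled shCTRL (replicates 1, 2 and 4), a log2 fold change of 1.23 (SE 0.05, limma adjusted p = 8.37e-07). Ctss had 160, 159 and 156 TPM in tumors labelled shMogat1, against 66.1, 64.0 and 70.2 TPM in tumors labelled shCTRL, also a log2 fold change of 1.23 (SE 0.04, adjusted p = 9.88e-08). The groups stood far apart for both genes, at 2.37 times the mean TPM of shCTRL. C1qb and C1qc rose by 1.15 and 1.10 on the log2 scale, Itgam by 1.07, Csf1r by 1.02 and Adgre1 by 0.95. This scale adds 1 TPM before the log, which shrinks changes of genes with a low TPM most. In mean TPM, C1qb stood at 2.26, C1qc at 2.18, Itgam at 2.32, Csf1r at 2.13 and Adgre1 at 2.19 times shCTRL.

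Lyz2, Mrc1 and Cd68 had the smallest log2 fold changes of the 10. Lyz2 had 306, 304 and 304 TPM in tumors labelled shMogat1, against 152, 161 and 172 TPM in tumors labelled shCTRL (log2 fold change 0.92, SE 0.04, adjusted p = 8.72e-07). Mrc1 had 13.4, 13.9 and 13.9 TPM in tumors labelled shMogat1, against 7.45, 7.83 and 8.26 TPM in tumors labelled shCTRL (log2 fold change 0.73, SE 0.06, adjusted p = 2e-05). Cd68 had 21.4, 21.7 and 22.6 TPM in tumors labelled shMogat1, against 14.3, 15.5 and 15.5 TPM in tumors labelled shCTRL, the smallest difference of the 10 at a log2 fold change of 0.51 (SE 0.05, adjusted p = 7.64e-05). In ratios to C1qa, which were picked after the values were seen and not tested, the groups did not overlap for these 3 genes. Lyz2 stood at 2.81 to 3.28 in tumors labelled shMogat1 and 3.63 to 3.93 in tumors labelled shCTRL. Mrc1 stood at 0.123 to 0.149 in tumors labelled shMogat1 and 0.178 to 0.189 in tumors labelled shCTRL. Cd68 stood at 0.197 to 0.234 in tumors labelled shMogat1 and 0.341 to 0.372 in tumors labelled shCTRL.

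In either direction, 54.5% of 12936 tested genes were called. With median-of-ratios scaling the split over all genes was 3124 higher and 3758 lower, against 4479 higher and 2573 lower without it, and the 10 genes stayed higher in every alternative fitted. Their median log2 fold change was 1.05, against 0.07 over all tested genes. Replicates of a group in this table differed by little more than counting noise: the median squared difference between 2 libraries of a group was 1.37 to 1.64 times what read numbers alone would give, against 3.95 to 37.0 times in the tumor time course. The standard errors and p-values are measured against a spread of that size. Within a group the 10 genes kept no common order of replicates here. The most common order held for 3 genes in tumors labelled shMogat1 and for 4 in tumors labelled shCTRL.

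**Figure D5:**
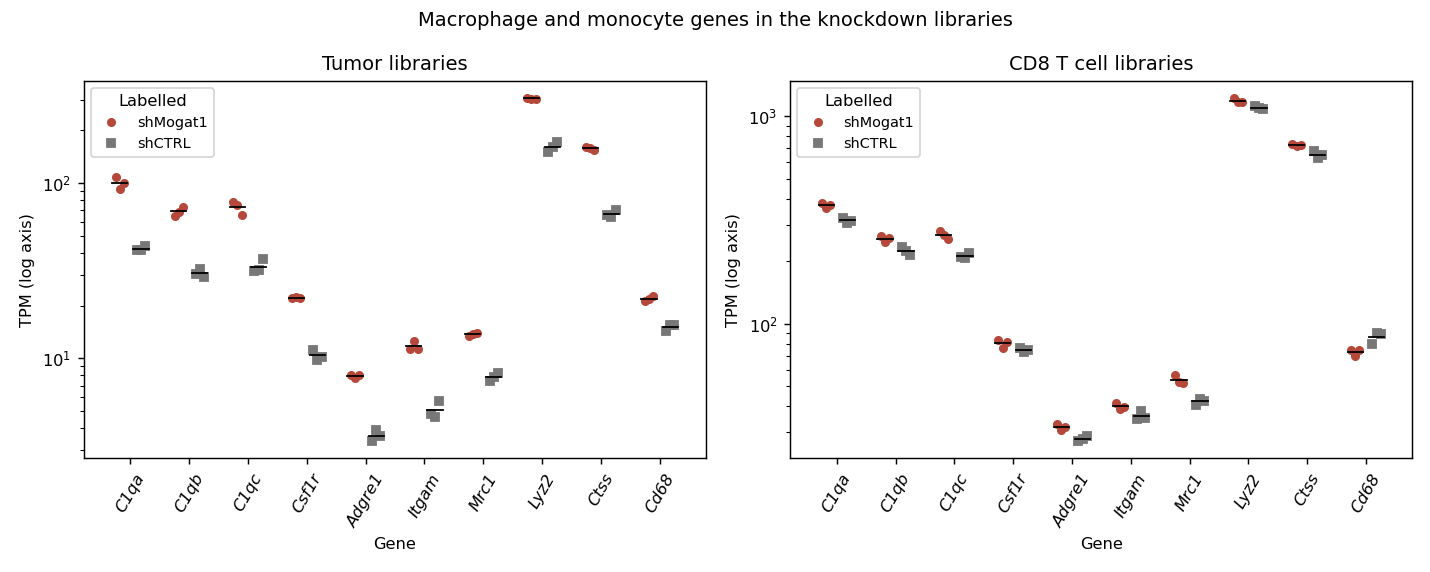
TPM of the 10 genes (log axis) in tumor libraries (left) and CD8 T cell libraries (right) labelled shMogat1 (circles) and shCTRL (squares), 3 libraries each; short lines are group means. In tumors every gene is higher in libraries labelled shMogat1, while in CD8 T cells the differences are small and Cd68 is lower.

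Most other leukocyte genes that were tested were also higher in the same tumors labelled shMogat1, beside 34.6% of all tested genes called higher. Ptprc averaged 11.5 ± 0.434 TPM in tumors labelled shMogat1 and 4.06 ± 0.211 TPM in tumors labelled shCTRL (log2 fold change 1.30, adjusted p = 1.89e-06), a larger log2 fold change than that of any member, and C1qa over Ptprc was 8.24 to 9.08 in tumors labelled shMogat1 and 9.76 to 11.3 in tumors labelled shCTRL. All 5 tested T cell genes, all 3 tested dendritic cell genes and the 1 tested B cell gene were higher. Of 3 tested neutrophil genes 1 was higher, and the 1 tested NK cell gene was not called. All 6 tested epithelial genes were higher too, with a summed level over the list of 941 to 983 TPM in tumors labelled shMogat1 and 201 to 217 TPM in tumors labelled shCTRL. Genes that reached 1 TPM in only the 3 libraries labelled shMogat1 entered the test through that group. For them a higher call was nearly given in advance. Cd8a (1.37 to 1.99 TPM in tumors labelled shMogat1 and 0.129 to 0.632 TPM in tumors labelled shCTRL) and Epcam entered in this way. Other counted T cell, dendritic cell and B cell genes may have done so, since their lists were low in tumors labelled shCTRL. There the T cell list summed to 2.20 to 3.09 TPM, the dendritic list to 5.16 to 6.07 TPM and the B cell list to 1.55 to 2.19 TPM. The counts of higher genes in these lists are therefore not a test of their direction. Summed fibroblast genes were 1190 to 1222 TPM in tumors labelled shMogat1 and 3318 to 3351 TPM in tumors labelled shCTRL. The part of these shifts in cell content in the members' values was not tested.

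Related lists held more higher than lower genes in these tumors, beside 34.6% of all tested genes called higher and 19.9% called lower. Of 14 phagocyte receptors and adaptors, 11 were higher and none lower, among them Fcgr2b (37.9 ± 2.49 TPM in libraries labelled shMogat1 and 11.6 ± 1.18 TPM in libraries labelled shCTRL, log2 fold change 1.63), Clec7a, a receptor for fungal glucans, Tyrobp and Fcer1g. Of 13 tested tissue macrophage genes, 9 were higher and none lower, with Cd163, a haemoglobin scavenger receptor, Spi1, which encodes PU.1, Msr1 and Folr2 in front at log2 fold changes of 1.05 to 1.26. Of 11 tested monocyte genes, 9 were higher (Ly6c2, Chil3, Ccr2 and Ms4a6c by the largest amounts) and 2 lower. Of 13 tested activation genes, 11 were higher (Retnla, Nos2 and Il6 by the largest amounts) and 1 was lower, Ptgs2 (1011 ± 19.9 TPM in libraries labelled shMogat1 and 2204 ± 24.2 TPM in libraries labelled shCTRL, log2 fold change -1.12). The activation list summed to 17475 to 17789 TPM in tumors labelled shMogat1 and 15137.7 to 15229.5 TPM in tumors labelled shCTRL. The monocyte list summed to 9784 to 10329 TPM and 9090 to 9401 TPM. These sums stood far above Ptprc (11.5 and 4.06 TPM). The part of cells other than leukocytes in them was not tested.

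Among growth factors and chemokines, 7 of 8 were higher and 1 lower. Ccl8 showed the largest change (28.5 ± 0.643 TPM in tumors labelled shMogat1 and 5.66 ± 2.40 TPM in tumors labelled shCTRL, log2 fold change 2.20), followed by Ccl12 and Ccl7, while Cx3cl1 was lower at a log2 fold change of -0.94. Lysosomal genes split, with 7 of 11 higher (Ctsc, Ctsk and Ctsd among them) and 2 lower (Ctsh at a log2 fold change of -1.07). Of 10 complement genes 6 were higher and 2 lower: C3, the central complement protein, had 75.0 ± 2.65 TPM in tumors labelled shMogat1 and 16.3 ± 0.191 TPM in tumors labelled shCTRL (log2 fold change 2.13), and Serping1, Cfb and Cfp were higher as well.

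In CD8 T cell libraries of the knockdown set, the log2 fold changes of the macrophage genes were small. C1qa had 384, 361 and 374 TPM in libraries labelled shMogat1 (replicates 1 to 3), against 323, 307 and 314 TPM in libraries labelled shCTRL (replicates 1, 3 and 4), a log2 fold change of 0.24 (SE 0.03, limma adjusted p = 0.00103). C1qc and Mrc1 had the largest log2 fold changes, both 0.33 (adjusted p = 0.000627 and 0.00121). C1qb rose by 0.20 on the log2 scale, Adgre1 by 0.18, Ctss by 0.16 and Lyz2 by 0.11, so 7 of 10 genes rose, to 1.08 to 1.26 times the shCTRL mean, beside 16.6% of tested genes called higher. Csf1r had 83.2, 76.0 and 81.8 TPM in libraries labelled shMogat1, against 76.0, 72.7 and 74.6 TPM in libraries labelled shCTRL (log2 fold change 0.11, SE 0.04, adjusted p = 0.0817). Itgam had 41.7, 38.7 and 39.5 TPM in libraries labelled shMogat1, against 34.6, 38.1 and 35.2 TPM in libraries labelled shCTRL (log2 fold change 0.15, SE 0.05, adjusted p = 0.0524).

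Cd68 went the other way. It had 74.9, 69.9 and 74.8 TPM in libraries labelled shMogat1, against 79.4, 90.0 and 89.1 TPM in libraries labelled shCTRL, with no overlap, and a log2 fold change of -0.23 (SE 0.06, adjusted p = 0.0125), beside 26.2% of tested genes called lower and 32.8% not overlapping in this direction. Cd68 over C1qa was 0.194 to 0.200 in libraries labelled shMogat1 and 0.246 to 0.293 in libraries labelled shCTRL. In either direction, 42.8% of 13742 tested genes were called. All libraries labelled shMogat1 lay above all libraries labelled shCTRL for 8 of the 10 members and for 22.1% of all tested genes. The median log2 fold change of the members was 0.17, against -0.05 over all tested genes, and with quantile normalization Lyz2 had a log2 fold change of -0.01. With median-of-ratios scaling the split over all genes was 3006 higher and 2980 lower, against 2279 higher and 3599 lower without it. With the libraries left out in turn, 6 to 9 of the 10 genes passed; 6 passed without shMogat1 replicate 1, and Cd68 was lower and past the threshold in each of these fits. Counting noise again made up much of the spread, with a median squared difference 1.44 to 2.33 times the counting noise. Replicate 1 was the highest library labelled shMogat1 for all 10 genes, while in libraries labelled shCTRL no order held for more than 3 genes.

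The summed level of the members differed between the tables. The 10 genes summed to 3036 to 3180 TPM in CD8 T cells labelled shMogat1 and 2736 to 2822 TPM in CD8 T cells labelled shCTRL, and to 777 to 793 TPM in tumors labelled shMogat1 and 363 to 395 TPM in tumors labelled shCTRL. In the time course they summed to 213 to 3164 TPM in tumors and 335 to 1227 TPM in CD8 T cells. Genes with a high TPM weigh most in such sums. In CD8 T cell week 2 replicate 1, which summed to 335 TPM, Ctss had 275 TPM and C1qa 4.37 TPM. Cd8a averaged 685.3 ± 12.7 TPM in CD8 T cells labelled shMogat1 and 697.6 ± 15.1 TPM in CD8 T cells labelled shCTRL, and summed T cell genes were 3191 to 3239 TPM in libraries labelled shMogat1 and 3138 to 3259 TPM in libraries labelled shCTRL. Since the tables were scaled separately, these levels are descriptions.

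Related lists passed the test in both directions in these CD8 T cell libraries, beside 16.6% of all tested genes called higher and 26.2% called lower. Of 12 monocyte genes, 4 were higher, with Chil3 by the most (7.81 ± 2.41 TPM in libraries labelled shMogat1 and 1.45 ± 0.299 TPM in libraries labelled shCTRL, log2 fold change 1.81), and 6 were lower, with Vcan, a matrix proteoglycan, Plac8 and Fn1, which encodes fibronectin, in front. Of 14 activation genes, 3 were higher (Retnla by a log2 fold change of 2.66, and Nos2) and 5 lower (Il12b and Ptgs2 by the most, at -1.93 and -1.45). Receptors and adaptors had 4 of 14 higher, including Clec7a, Fcgr2b and Fcgr3, and 1 lower, Tyrobp (115.1 ± 1.39 TPM in libraries labelled shMogat1 and 156.9 ± 8.17 TPM in libraries labelled shCTRL, log2 fold change -0.44). Tissue macrophage genes had 3 of 15 higher (Timd4, Msr1 and Cd163) and 2 lower (Axl by the most).

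Among growth factors and chemokines, 6 of 8 were lower, including Cx3cl1 and the CSF1R ligands Il34 and Csf1, and 2 were higher, with Ccl8 at 116.3 ± 4.98 TPM in libraries labelled shMogat1 and 54.7 ± 4.51 TPM in libraries labelled shCTRL (log2 fold change 1.08). Of 11 lysosomal genes, 7 were lower (Ctsl at a log2 fold change of -0.92, Ctsk and Ctsb) and 1 was higher (Ctsc). Complement genes had 3 of 10 higher, including Cfb and C3, and 5 lower, including C1s1. Fibroblast genes also differed, with 5 of 6 lower and a summed level of 519 to 549 TPM in libraries labelled shMogat1 and 1111 to 1134 TPM in libraries labelled shCTRL. Of 8 dendritic cell genes, 5 were lower and 1 higher, while their summed level was higher, at 771 to 810 TPM in libraries labelled shMogat1 and 601 to 611 TPM in libraries labelled shCTRL. Of 7 epithelial genes, 5 were higher and 1 lower, with a summed level of 218 to 221 TPM in libraries labelled shMogat1 and 93.1 to 99.8 TPM in libraries labelled shCTRL. Of 4 NK cell genes, 3 were lower, with a summed level of 66.4 to 69.8 TPM in libraries labelled shMogat1 and 92.8 to 100.05 TPM in libraries labelled shCTRL. Vcan, Fn1 and Axl are also made by fibroblasts, and the part of fibroblast RNA in these values, or of any of these cell types in the values of the 10 members, was not tested.

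Side by side, the knockdown comparisons gave log2 fold changes of 0.51 to 1.23 for the members in tumors and -0.23 to 0.33 in CD8 T cells. Every member had the larger value in tumors. The difference between the tables was not tested, because they were scaled separately. Cd68 had the lowest value of the 10 in both tables.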

How the data were processed

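The 10 genes and the related lists were chosen with earlier results of these data known. The authors deposited TPM values in 4 tables of 33681 rows, and 27 rows whose names were dates were left out. Per the submitters' processing notes, FastQC, Trim Galore and HISAT2 were used with genome build mm10; the counter, its annotation and its strand setting are not given in the sources used here. Libraries were grouped by their labels. Each table was fitted by itself with limma 3.58.1 (R 4.3.3) on log2(TPM + 1), with an intensity trend and all groups of a table in 1 fit, leaving out genes that reached 1 TPM in fewer than 3 libraries of the table. P-values were adjusted by Benjamini-Hochberg over all tested genes, with a threshold of 0.05, two-sided. All 10 genes passed the filter in every table. The fit was tested on simulated data.

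Pairs of genes were correlated over the libraries of a time course, with two-sided permutation tests (100000 permutations for 11 libraries, exact for 9). Python 3.11.15, numpy 2.4.6, pandas 2.3.3 and matplotlib 3.10.9 were used. All 10 members are named in each table; genes of related lists are named where they passed, at most the 4 with the largest change per list and comparison, with the 8 genes most like the mean of the 10. A few genes that this rule names are not reported here. Depth was estimated from the smallest steps of TPM with GENCODE M21 exon lengths. Replicate numbers are shared between groups, but same-numbered libraries did not as a rule deviate together (r of -0.26 to 0.23 in tumors over time, -0.24 to 0.43 in CD8 T cells over time, -0.036 to 0.023 in knockdown tumors, 0.033 and 0.046 in knockdown CD8 T cells). The highest r, 0.43, was between replicate 1 of weeks 2 and 3 in CD8 T cells, the lowest library for all 10 members in both weeks. Same-numbered libraries were not treated as pairs in the main fit. Alternatives were another pseudocount, no filter or a stricter one, median-of-ratios and quantile scaling, array weights, a replicate block, only the groups compared, and each library left out in turn.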

Additional observations from a re-analysis of the deposited data

Results flagged for a closer look

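Mrc1, the mannose receptor gene, had 1 library far from the others in week 3 tumors. It stood at 29.8 TPM in replicate 4, against 12.9, 15.3 and 14.9 TPM in replicates 1 to 3, and the gap to the nearest library was 0.860 of the range of the group. This was 1 of 20 combinations of a member and a group of 4 libraries that were examined, and chance flags about 1 in 20. Replicate 4 was the highest week 3 library for all 10 members.

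Cd68, the lysosomal glycoprotein gene, was higher in all 3 tumors labelled shMogat1 than in the tumors labelled shCTRL (log2 fold change 0.51) and lower in all 3 CD8 T cell libraries labelled shMogat1 than in the CD8 T cells labelled shCTRL (log2 fold change -0.23). The log2 fold changes differed by 0.74. The difference itself was not tested.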

How the results depend on the processing

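Of the 10 genes, 10 passed the threshold in knockdown tumors under every alternative fitted, and none in tumors of week 3 against week 2 or week 4 against week 3, or in CD8 T cells of week 3 against week 2. In tumors of week 4 against week 2 the count was 1, against 2 with median-of-ratios scaling and 0 without the filter, with quantile scaling, with array weights, with the replicate block or with only the groups compared, and 0 to 4 with a library left out. In CD8 T cells it was 0 in week 4 against week 2, against 4 with array weights and 1 with the replicate block (Itgam), and 0 in week 4 against week 3, against 1 with array weights, whose estimation did not converge fully in some fits. In knockdown CD8 T cells it was 8, against 4 with the replicate block (Adgre1, Lyz2, Ctss and Cd68 lost the call) and 6 to 9 with a library left out. The replicate block changed no other count of members. Csf1r and Cd68 changed sign in tumors of week 4 against week 2 with array weights (0.025 and 0.39). In tumors of week 3 against week 2, Csf1r, Mrc1 and Cd68 changed sign with median-of-ratios scaling (-0.019, -0.060 and -0.062) and quantile scaling (-0.045, -0.10 and -0.076). In CD8 T cells, Itgam (0.0010, quantile) and Mrc1 (0.042, array weights) did so in week 4 against week 3, and Lyz2 (-0.0093, quantile) in the knockdown set. With a library left out, tumors of week 4 against week 2 gave -1.30 to 0.18 for Csf1r, -0.33 to 0.98 for Itgam and -0.70 to 0.53 for Cd68. Tumors of week 3 against week 2 gave -0.60 to 0.89 for Csf1r, -0.42 to 0.76 for Mrc1 and -0.56 to 0.67 for Cd68. Tumors of week 4 against week 3 gave -0.62 to 0.041 for Itgam and -0.38 to 0.19 for Cd68. CD8 T cells of week 4 against week 2 gave -0.060 to 1.61 for C1qa, -0.071 to 0.89 for Csf1r and -0.092 to 1.36 for Lyz2. CD8 T cells of week 4 against week 3 gave -1.11 to 0.059 for C1qb, -0.52 to 0.21 for Itgam and -0.90 to 0.066 for Lyz2. The causes were not tested. Where an arm was left with 2 libraries, its spread was pooled with the other groups.

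Over all tested genes, the count of calls moved by more than 1.5 times in 5 comparisons. It was 3560 in tumors of week 3 against week 2, against 1637 with only the groups compared and 1371 to 5751 with a library left out. It was 2026 in tumors of week 4 against week 3, against 4614 with array weights, 3857 with only the groups compared and 1251 to 3580 with a library left out. In CD8 T cells it was 2335 in week 4 against week 2, against 5910 with array weights, 1422 with the replicate block, 1356 with only the groups compared and 928 to 3115 with a library left out. In week 3 against week 2 it was 6, against 869 with array weights, 0 with the replicate block and 5 to 10 with a library left out. In week 4 against week 3 it was 356, against 234 without the filter, 584 with quantile scaling, 3661 with array weights, 3 with the replicate block and 46 to 630 with a library left out. Median-of-ratios scaling moved the median of all genes to -0.01 in tumors of week 4 against week 2 (0.11 without it) and week 3 against week 2 (0.14), and in CD8 T cells of week 3 against week 2 (0.10) and week 4 against week 3 (-0.13). The split of higher and lower genes became 3544 and 3425 (4318 and 2525 without it), 1952 and 1407 (2967 and 593) in the tumor comparisons and 324 and 155 (184 and 172) in the last. Quantile scaling gave 2075 and 1168 in tumors of week 3 against week 2, 1183 and 1168 in tumors of week 4 against week 3 (817 and 1209 without it), 1315 and 1409 in CD8 T cells of week 4 against week 2 (1377 and 958), 3291 and 3256 in knockdown tumors and 3182 and 2731 in knockdown CD8 T cells.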
